A study of Mus musculus with 9 samples.

Results

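NF-κB is the transcription factor family through which dendritic cells answer microbial products, TNF family ligands and tissue signals. Its dimers are built from the products of Nfkb1, Nfkb2, Rel, Rela and Relb. In a resting cell IκB proteins hold these dimers in the cytoplasm until the IκB kinase complex marks the inhibitor for degradation, and several inhibitors are themselves induced by NF-κB and so form a negative feedback. In dendritic cells the family is known for its part in maturation, cytokine production and survival. The data described here are the transcript levels of 10 genes of this system, chosen by symbol: the subunits Nfkb1, Nfkb2, Rel and Rela, the IκB family members Nfkbia, Nfkbib, Nfkbie and Nfkbiz, and the ubiquitin-pathway genes Tnfaip3 and Birc3. All 10 were among the 24054 genes listed, and all 10 passed the filter on low counts (an average of at least 1 read per library), which left 14452 genes for testing.

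The libraries were made from type 2 dendritic cells of the spleen of C57BL/6 mice of the genotype Clec9a-Cre/Cre Rosa-tdTomato/tdTomato. In these mice Cre is expressed from the Clec9a locus, on both alleles, and tdTomato (TOM) marks cells with a history of Clec9a expression. Live single autofluorescence- cells that were MHCII+, CD11c+ and CD11b+ were sorted by TOM into 3 groups of 3 libraries: TOM+ cDC2 of 8-day-old mice, TOM- DC2 of 8-day-old mice, and TOM+ cDC2 of adults (9 weeks for 1 library, 8 weeks for the others). No adult TOM- group was sequenced among these libraries, the spleens of young mice were pooled, and the sex behind each library is not given in the sources used here. The comparison of young with adult cells asks how age changes cDC2, and the comparison of TOM+ with TOM- cells asks whether cells of different origin differ at the same age. The study calls its libraries biological replicates, and labels do not name the animals behind each of them.

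Between 12783252 and 22809401 reads per library were counted on genes. All 11 cDC2 markers were detected in each group. Most of their summed level was H2-Ab1, an MHC class II gene that B cells also express, at 15674 to 16893 TPM (a level relative to the library's total and corrected for transcript length) in young and 27691 to 29642 TPM in adult libraries. The other 10 markers summed to 1756 to 2168 TPM in young and 2099 to 2421 TPM in adult libraries. Of the 11, 7 were higher in adults at an adjusted p of 0.05 in edgeR in each comparison. These were not the same genes. Irf4 passed against young TOM+ only (adjusted p = 0.017) and Zbtb46 against young TOM- only (0.0048). Itgam, Sirpa and Clec10a (3 of 11) were higher in the young in both. Over all tested genes 19.5% and 16.9% were higher in adults, and 21.0% and 19.4% higher in the young. Against this, the summed markers of T cells reached at most 38.9 TPM, those of cDC1 266 TPM and those of neutrophils 17.2 TPM. Markers of other cells moved with the groups. Those of macrophages summed to 180 to 227 TPM in young TOM+, 293 to 355 TPM in young TOM- and 102 to 154 TPM in adult libraries, those of B cells to 62.2 to 71.8, 77.2 to 89.6 and 45.2 to 58.6 TPM, and those of monocytes to 42.5 to 58.5, 32.9 to 43.1 and 21.4 to 25.0 TPM. The pDC sum was 103 to 114 TPM in young and 122 to 164 TPM in adult libraries, and ILC3 markers were at 31.6 to 39.4 TPM in young TOM- DC2 and at 3.57 to 5.65 TPM in the other groups. The part of these cells in the results below was not tested. Libraries carry a number in their deposited names (81, 91 and 92 in young mice, 91, 92 and 95 in adults), and these numbers name the libraries below. Young libraries numbered 81 stood apart from the others of their group, with a chi-square per gene of 22.2 to 24.3 against 9.18 and 11.7 between the remaining young pairs, and in adults library 95 did so, with 17.9 and 21.6 against 12.3. Results are therefore also given with libraries numbered 91 and 92 alone.

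The members lie at separate loci (RefSeq, GRCm38.p6, the same primary assembly as the mm10 build of the files): Nfkb1 on chromosome 3 (135584655 to 135691969), Nfkb2 and Rela on chromosome 19 (46300994 to 46312400 and 5637442 to 5648134), Rel on chromosome 11 (23736847 to 23770969), Nfkbia on chromosome 12 (55489409 to 55492647), Nfkbib on chromosome 7 (28758251 to 28766644), Nfkbie on chromosome 17 (45555700 to 45563169), Nfkbiz on chromosome 16 (55811375 to 55838954), Tnfaip3 on chromosome 10 (19000910 to 19015410) and Birc3 on chromosome 9 (7847468 to 7873205). Other genes overlap the loci of Nfkb1 (Gm46827), Nfkb2 (4833438C02Rik and Psd) and Nfkbib (Ccer2), and because reads were counted without strand, their reads cannot be told apart where exons coincide.

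Several of these genes are described as targets of NF-κB themselves, so their promoter sequences were examined. RefSeq promoter windows were found for 8 members and for neither Nfkb1 nor Nfkbiz, and the 250 bases before each annotated start were searched on both strands for the κB consensus, the 10-base motif of NF-κB dimers. A match was present in at least 1 window of 5 members, Nfkb2, Rel, Nfkbia, Nfkbie and Tnfaip3, and in no window of Rela, Nfkbib and Birc3. Over all 27025 genes with a window, 8.23% held a match in at least 1, and over all 32851 windows of the same length 7.25% did. For each member with a match, 1 window is printed to show where these letters lie. It is given 5′ to 3′ on the gene's strand, with the matched bases in capitals. A match describes letters and was not measured as binding.
Nfkbia, chr12:55492648-55492897, minus strand: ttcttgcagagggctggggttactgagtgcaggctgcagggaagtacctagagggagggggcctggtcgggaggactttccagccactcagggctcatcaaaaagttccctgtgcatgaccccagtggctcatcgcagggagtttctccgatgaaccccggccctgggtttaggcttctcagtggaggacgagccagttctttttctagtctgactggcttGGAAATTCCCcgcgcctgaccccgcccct
Nfkbie, chr17:45555450-45555699, plus strand: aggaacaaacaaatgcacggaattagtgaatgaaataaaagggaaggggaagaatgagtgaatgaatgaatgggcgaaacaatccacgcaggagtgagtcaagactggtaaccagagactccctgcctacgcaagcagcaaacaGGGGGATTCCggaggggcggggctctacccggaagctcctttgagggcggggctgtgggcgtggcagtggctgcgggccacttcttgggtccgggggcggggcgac
Tnfaip3, chr10:19015411-19015660, minus strand: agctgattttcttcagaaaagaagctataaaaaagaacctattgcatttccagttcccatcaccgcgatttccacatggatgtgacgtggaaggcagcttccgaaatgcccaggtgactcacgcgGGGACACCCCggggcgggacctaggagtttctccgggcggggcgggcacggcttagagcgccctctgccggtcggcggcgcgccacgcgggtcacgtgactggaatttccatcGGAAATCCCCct
Rel, chr11:23770970-23771219, minus strand: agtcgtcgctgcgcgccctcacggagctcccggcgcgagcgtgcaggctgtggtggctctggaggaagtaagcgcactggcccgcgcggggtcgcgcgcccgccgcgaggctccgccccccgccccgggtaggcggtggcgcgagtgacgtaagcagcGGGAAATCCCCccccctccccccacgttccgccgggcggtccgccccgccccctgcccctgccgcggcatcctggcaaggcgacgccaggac
Nfkb2, chr19:46304487-46304736, plus strand: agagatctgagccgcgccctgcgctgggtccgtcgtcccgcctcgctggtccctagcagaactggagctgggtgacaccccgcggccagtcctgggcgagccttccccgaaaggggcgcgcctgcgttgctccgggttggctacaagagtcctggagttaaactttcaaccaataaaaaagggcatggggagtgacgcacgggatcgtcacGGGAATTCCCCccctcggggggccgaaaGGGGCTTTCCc

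The matched bases began 29 bases before the start of Nfkbia, 106 before that of Nfkbie, 125 and 12 before that of Tnfaip3, and 92 and 91 before that of Rel, where the matches overlap. In Nfkb2 the matches began 39, 38 and 11 bases before the start, of which the first and second overlap. Nfkb2 has other annotated starts downstream, each with a match of its own, 236 and 225 bases before the start. Tnfaip3 also has another annotated start downstream, whose window holds no match.

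Every member was higher in adult than in young cDC2. All 10 passed an adjusted p of 0.05 in edgeR's quasi-likelihood test against young TOM+ cDC2 and all 10 did so against young TOM- DC2, in each case with adults higher. Over all tested genes, 19.5% were past this threshold and higher in adults in the first comparison and 16.9% in the second, while 21.0% and 19.4% were past it and higher in the young. In TPM, each of the 3 adult libraries lay above each of the 6 young libraries for all 10 members, as they did for 12.1% of all tested genes. On normalized counts adults did not overlap with either young group for any member and were higher, a pattern found in 24.0% of all tested genes against young TOM+ and in 21.5% against young TOM- cells. Both comparisons share the adult libraries. The median log2 fold change (young minus adult, so that a negative value means higher in adults) over the members was -0.74 for TOM+ and -0.76 for TOM- cells, beside 0.05 and 0.07 over all tested genes. As these are bulk libraries, fewer cells that express a gene and less RNA of it per cell cannot be told apart.

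**Figure D1:**
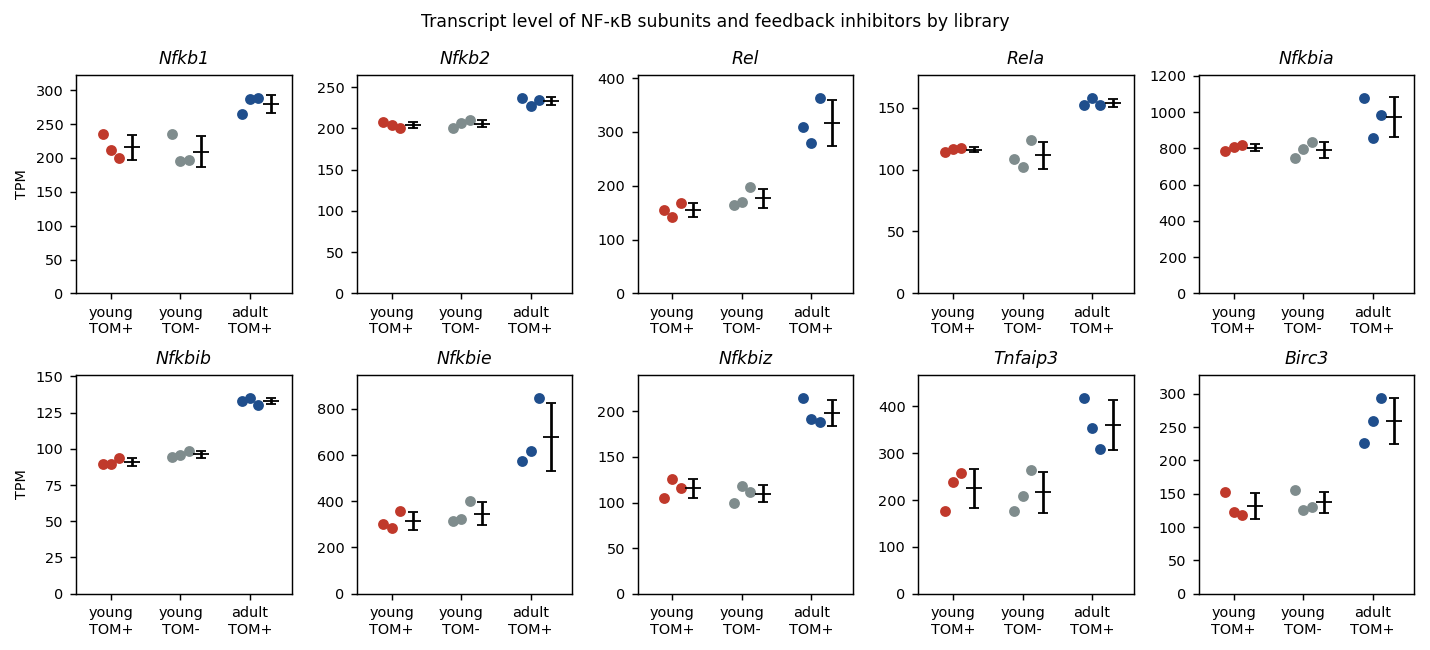
Transcript level (TPM, linear axis from 0) of each of the 10 members in the 9 libraries, with points for libraries and a bar for mean ± SD (n = 3) beside them, in young TOM+ cDC2, young TOM- DC2 and adult TOM+ cDC2. In every panel the 3 adult points lie above the 6 young points, by the smallest margin for Nfkbia (adult minimum 1.03 times the young maximum) and by the largest for Nfkbiz (1.5 times).

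A stricter rule, a log2 fold change beyond 1 with the same adjusted p, was met by 3 members against young TOM+ cDC2 (Rel, Nfkbie and Birc3) and by 4 against young TOM- DC2 (the same with Nfkbiz). This rule was met by 6.85% and 4.78% of all tested genes with adults higher, and by 5.96% and 6.50% with the young higher. Nfkbiz crossed the limit in 1 comparison only, but its difference between the young groups was 0.10 (95% confidence interval -0.15 to 0.35). These are fold changes without shrinkage, and with DESeq2 and apeglm shrinkage, as the study used, the same 3 and the same 4 members met the rule. The 4 calls against young TOM- DC2 lie close to the limit. They became 2 (Birc3 and Nfkbie) without young TOM- library 81, 2 (Nfkbiz and Tnfaip3) without adult library 95, 1 (Birc3) with libraries numbered 91 and 92 alone, and 0 when counts were scaled by library size only or when log2(TPM + 1) was tested with limma.

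Scaling matters for how large these differences appear. TMM factors, which correct library sizes for composition, were 1.02 to 1.08 in young and 0.894 to 0.928 in adult libraries, so fitted folds exceed plain TPM ratios. With library size only, the median over all genes moved from 0.05 to 0.25 for TOM+ and from 0.07 to 0.29 for TOM- cells, and all 10 members stayed below that median and below 0. Under that scaling Nfkb2 (log2 fold change -0.12, adjusted p = 0.22, and -0.10, adjusted p = 0.27) and Nfkbia (-0.21, adjusted p = 0.098, and -0.24, adjusted p = 0.061) no longer passed in edgeR. The share of genes past the threshold that were higher in the young also depended on it, at 51.9% and 53.5% with TMM, 72.4% and 77.3% with library size only, and 68.8% and 72.6% in limma on log2(TPM + 1).

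**Figure D2:**
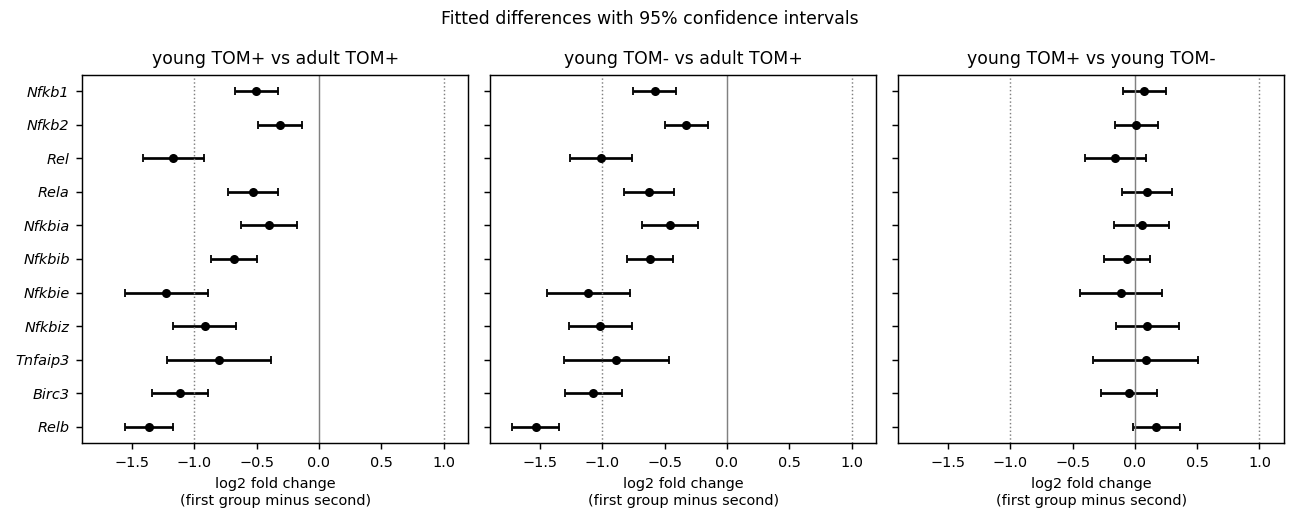
Fitted log2 fold change with its 95% confidence interval (edgeR, n = 3 libraries a group) of the 10 members and of Relb in the 3 comparisons, as first group minus second, with dotted lines at -1 and 1. In both comparisons with adults every interval lies below 0, and between the young groups every interval crosses 0.

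Among the 4 subunits that are members, Rel changed most. Rel encodes c-Rel, a transactivating subunit prominent in lymphocytes and in the cytokine response of dendritic cells. Its level was 155, 141 and 168 TPM in young TOM+ libraries 81, 91 and 92, 164, 169 and 197 TPM in young TOM- libraries in the same order, and 309, 279 and 363 TPM in adult libraries 91, 92 and 95. The lowest adult library was 1.42 times the highest young library. The fitted log2 fold change was -1.17 (SE 0.11, adjusted p = 8.8e-06 in edgeR), that is 2.25-fold higher in adults, against young TOM+ cDC2. Against young TOM- DC2 it was -1.01 (SE 0.11, adjusted p = 3.2e-05 in edgeR), 2.02-fold.

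Rela, whose product is the transactivating partner in the most common NF-κB dimer, differed less. Its levels of 114, 117 and 117 TPM in young TOM+, 109, 102 and 124 TPM in young TOM- and 152, 158 and 152 TPM in adult libraries did not overlap between ages. Its log2 fold change was -0.53 (SE 0.09, adjusted p = 0.00067 in edgeR) for TOM+ and -0.63 (SE 0.09, adjusted p = 0.00025) for TOM- cells, 1.44-fold and 1.54-fold higher in adults.

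Nfkb1 and Nfkb2 encode the precursors that are processed to subunits lacking a transactivation domain. Nfkb1 was at 235, 212 and 199 TPM in young TOM+, 236, 195 and 197 TPM in young TOM- and 264, 287 and 289 TPM in adult libraries. In both young groups library 81 was the highest. Its log2 fold change was -0.51 (SE 0.08, adjusted p = 0.00031 in edgeR) and -0.58 (SE 0.08, adjusted p = 0.00014) against the TOM+ and TOM- young groups.

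Nfkb2 was the member with the smallest difference. It was measured at 207, 204 and 200.4 TPM in young TOM+, 201, 206 and 210.2 TPM in young TOM- and 237, 227 and 234 TPM in adult libraries, with a coefficient of variation of 1.64% to 2.3% within a group. The small spread set the ages apart although adults were only 1.24-fold and 1.25-fold higher in the fit, with log2 fold changes of -0.31 (SE 0.08, adjusted p = 0.0077 in edgeR) and -0.32 (SE 0.08, adjusted p = 0.0072).

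The subunits thus differed in unequal measure, and their proportions moved. As a share of the summed TPM of Nfkb1, Nfkb2, Rel and Rela in a library, Rel took 21.0% to 24.5% in young TOM+, 23.1% to 27.0% in young TOM- and 29.3% to 35.0% in adult libraries. Nfkb2 went the other way, from 29.1% to 30.3% and 28.3% to 30.7% in the young to 22.6% to 24.6% in adults. The shares of Nfkb1 (27.1% to 33.3% in young, 27.5% to 30.2% in adult libraries) and Rela (15.2% to 17.3% and 14.6% to 16.6%) overlapped between ages. The ratio of Rel to Rela was 1.21 to 1.43 in young TOM+, 1.51 to 1.66 in young TOM- and 1.77 to 2.39 in adult libraries, so that the groups did not overlap. These shares are descriptions, and no test was run on them.

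**Figure D3:**
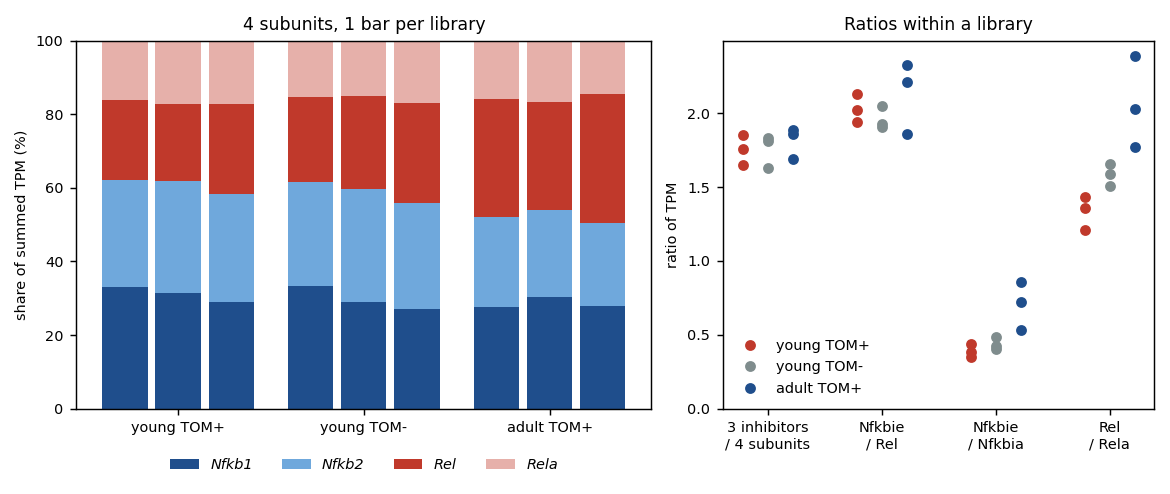
Left, share of the summed TPM of Nfkb1, Nfkb2, Rel and Rela (percent) taken by each gene, with 1 bar per library in the order of library numbers. Right, ratios of TPM within a library, with 1 point per library, for the 3 cytoplasmic inhibitors (Nfkbia, Nfkbib and Nfkbie) over the 4 subunits, Nfkbie over Rel, Nfkbie over Nfkbia and Rel over Rela. Rel takes 29.3% to 35.0% in adults against 21.0% to 27.0% in the young, while the ratio of inhibitors to subunits overlaps between the groups.

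Nfkbia encodes IκBα, the rapidly resynthesized inhibitor of Rela-containing dimers, and carries a κB match close to its start in the sequence above. It was the most abundant member in each group. Levels were 783, 810.2 and 818 TPM in young TOM+, 745, 795 and 833 TPM in young TOM- and 1078, 856 and 984 TPM in adult libraries. Adult library 92 was barely above the highest young library. The log2 fold change was -0.40 (SE 0.10, adjusted p = 0.0079 in edgeR) and -0.46 (SE 0.10, adjusted p = 0.0043), 1.32-fold and 1.37-fold higher in adults.

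Nfkbie encodes IκBε, an inhibitor that acts on Rel- and Rela-containing dimers. It had the largest fold change of the members in both comparisons. It stood at 299.8, 285 and 359 TPM in young TOM+, 316, 322 and 402.5 TPM in young TOM- and 574, 616 and 846 TPM in adult libraries. Library 92 was the highest of each young group, and adult library 95 was far above the other adults, which gave Nfkbie the largest coefficient of variation among members in adults (21.6%). The log2 fold change was -1.23 (SE 0.15, adjusted p = 5.7e-05 in edgeR) against young TOM+ and -1.11 (SE 0.15, adjusted p = 0.00014) against young TOM- cells. With libraries numbered 91 and 92 alone these values were -1.01 (adjusted p = 4.2e-05) and -0.87 (adjusted p = 0.00017) in edgeR.

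Nfkbib, which encodes IκBβ, a more slowly degraded inhibitor, was the least abundant and among the most even members. Its levels were 89.3, 89.7 and 94.0 TPM in young TOM+, 94.2, 96.0 and 98.8 TPM in young TOM- and 133, 135 and 131 TPM in adult libraries. All adult values exceeded the young ones by at least 1.32 times. The fitted log2 fold change was -0.68 (SE 0.09, adjusted p = 6e-05 in edgeR) and -0.62 (SE 0.09, adjusted p = 0.00015).

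Nfkbiz encodes IκBζ, a nuclear family member that acts as a cofactor at a set of secondary response genes. It was at 105, 125 and 116 TPM in young TOM+, 99.9, 118 and 111 TPM in young TOM- and 214, 192 and 189 TPM in adult libraries. The gap between ages, 1.5 times from the highest young to the lowest adult library, was the widest of all members. Its log2 fold change was -0.92 (SE 0.12, adjusted p = 6.5e-05 in edgeR) and -1.02 (SE 0.12, adjusted p = 3.9e-05), 1.89-fold and 2.02-fold higher in adults.

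Inhibitor transcripts were higher in adults together with those of the subunits they restrain. Summed over Nfkbia, Nfkbib and Nfkbie, the level was 1155 to 1334 TPM in young and 1607 to 1960 TPM in adult libraries, and summed over the 4 subunits it was 672 to 728 TPM and 951 to 1038 TPM. The ratio of these sums was 1.75 ± 0.10 (SD, n = 3) in young TOM+, 1.76 ± 0.11 in young TOM- and 1.81 ± 0.11 in adult libraries, with overlapping ranges. Likewise Nfkbie over Rel was 1.94 to 2.13, 1.91 to 2.05 and 1.86 to 2.33. Within the inhibitors the balance moved, since Nfkbie over Nfkbia was 0.351 to 0.438 in young TOM+, 0.405 to 0.483 in young TOM- and 0.532 to 0.86 in adult libraries.

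Tnfaip3 encodes a ubiquitin-editing enzyme that shuts down NF-κB signalling and restrains dendritic cell activation. It was measured at 177, 239.6 and 257 TPM in young TOM+, 176, 209.6 and 263 TPM in young TOM- and 417, 354 and 309 TPM in adult libraries. In both young groups library 81 was the lowest, and the coefficient of variation of 15.1% to 20.2% within a group was the largest of the members in each young group. The log2 fold change was -0.80 (SE 0.19, adjusted p = 0.0055 in edgeR) and -0.89 (SE 0.19, adjusted p = 0.0034), 1.74-fold and 1.85-fold higher in adults.

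Birc3 encodes a ubiquitin ligase (cIAP) of the TNF receptor complexes that promotes canonical signalling and limits the non-canonical branch by degrading the kinase encoded by Map3k14. Its levels were 153, 122 and 118 TPM in young TOM+, 155, 126 and 129.8 TPM in young TOM- and 225, 259 and 293 TPM in adult libraries. Library 81 was here the highest of both young groups, the opposite of Tnfaip3. The log2 fold change was -1.12 (SE 0.10, adjusted p = 6.7e-06 in edgeR) and -1.07 (SE 0.10, adjusted p = 1.2e-05). RSEM, which divides reads that fit several transcripts, gave Birc3 1.13 to 1.15 times the reads counted at a single position, whereas for the other members this ratio was 0.923 to 1.03. Birc3 shares sequence with its neighbour Birc2, so its level is less certain, and on RSEM's estimated counts all 10 members still passed in both comparisons.

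Ordered by TPM, which is per transcript length, 4 members held the same rank in all groups and 6 differed in rank between young and adult libraries. Nfkbia was first and Nfkbie second, each without overlap with the next gene, and Tnfaip3 came next. Nfkb1 and Nfkb2 followed in young libraries, where the ranges of these 3 neighbours overlapped (225 ± 42.1, 215 ± 18.1 and 204 ± 3.35 TPM in young TOM+, SD, n = 3). In adults Rel (317 ± 42.5 TPM) stood between Tnfaip3 (360 ± 54.2 TPM) and Nfkb1 (280 ± 13.6 TPM), and these neighbours overlapped. Birc3 was below Nfkb2 in young TOM+ (131 against 204 TPM) and in young TOM- (137 against 206 TPM) and above it in adults (259 against 233 TPM), where their ranges overlapped. Rela and Nfkbiz, which overlapped in both young groups, were in the reverse order in adults (154 and 198 TPM) without overlap. Nfkbib was last everywhere, below the range of the gene next to it.

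Between TOM+ and TOM- cells of the same age no member passed the adjusted test. In edgeR 0 of 10 members passed an adjusted p of 0.05, and 0 had an unadjusted p under 0.05, while 1.60% and 9.38% of all tested genes did. DESeq2 and limma on log2(TPM + 1) also gave 0 members under both limits. Fitted log2 fold changes (TOM+ minus TOM-) ran from -0.16 for Rel (95% confidence interval -0.40 to 0.09) to 0.10 for Nfkbiz (-0.15 to 0.35). The widest interval was that of Tnfaip3 (-0.33 to 0.50).

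Young libraries of the same number deviated together, and with the number as a replicate block the members still gave 0 past the adjusted p, while 6.57% of all tested genes passed. The block narrowed the intervals. Over the 10 members standard errors were 0.05 to 0.07 with it and 0.08 to 0.19 without, and intervals reached from -0.30 to 0.24. It lowered the adjusted p of Rel to 0.24 (log2 fold change -0.15, SE 0.07, unadjusted p = 0.041), the only unadjusted p under 0.05. Taken pair by pair on normalized counts, Rel was lower in TOM+ than in TOM- cells in 3 of 3 pairs (log2 differences -0.04, -0.23 and -0.19), as were Nfkbib and Nfkbie. Nfkb1, Nfkbia and Nfkbiz were higher in TOM+ cells in 3 of 3 pairs, by at most 0.14, 0.11 and 0.11. None of these differences passed the adjusted test. The share of all tested genes with the same sign in 3 of 3 pairs is not given here, so these signs are descriptions only.

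The gene whose pattern was nearest to that of Nfkbie over the 9 libraries, by the root mean square difference of log2(TPM + 1) centred on each gene's mean, was Etv3 (0.10), a transcriptional repressor, among 10111 genes compared. Rel followed (0.10), then Malt1 (0.11), Galnt6 (0.12) and Herpud1 (0.12). Etv3 was at 82.1 ± 5.63 TPM in young TOM+, 86.1 ± 7.78 TPM in young TOM- and 187 ± 40.9 TPM in adult libraries (SD, n = 3). Rel was thus the nearest member to Nfkbie, and Malt1 is a protease of the adaptor list below. For the other members the nearest member ranked between 8 and 448 among all genes.

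Beyond the members, 51 further genes of the pathway were listed, of which 24 were higher in adults and 4 higher in young TOM+ cDC2 at an adjusted p of 0.05, with 25 and 5 against young TOM- DC2. Over all tested genes the shares higher in adults and in the young were 19.5% and 21.0% in the first comparison. In the second they were 16.9% and 19.4%, and these shares apply to the lists below too. The median log2 fold change over the 51 genes was -0.30 and -0.25. The counts of this list and of its parts below depend on scaling. With library size only in edgeR, 25 of the 51 passed against young TOM+ cDC2. Chuk, Ikbkb, Ikbkg, Bcl10, Sharpin, Rnf11 and Tax1bp1 then no longer passed in either comparison. Tbk1, Map3k7, Ripk1 and Pdlim2 instead passed as higher in the young in both. Further pathway genes also changed their call, and the split between ages was less uneven. Relb, the subunit of the non-canonical branch, was at 227, 195.5 and 190.5 TPM in young TOM+, 197, 169 and 189 TPM in young TOM- and 468, 439 and 542 TPM in adult libraries. This difference (log2 fold change -1.37, SE 0.09, adjusted p = 5e-07, and -1.54, SE 0.09, adjusted p = 2.5e-07 in edgeR) exceeded that of every member. Of the other IκB family genes, Nfkbid was higher in adults (-0.83 and -0.59, adjusted p = 0.00024 and 0.003), and Bcl3 had values of 0.10 and -0.01 (adjusted p = 0.59 and 0.97). Against young TOM+ cDC2 Bcl3 passed as higher in the young with the replicate block (0.29, adjusted p = 0.0045 in edgeR) and with libraries numbered 91 and 92 alone (0.28, adjusted p = 0.034). In comparisons with adults the block rests on the numbers 91 and 92. Young and adult libraries of the same number deviated together little (r = -0.003 to 0.157).

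Of 11 kinases, 5 were higher in adults and 1 in the young in each comparison. The 3 genes of the IκB kinase complex, Chuk, Ikbkb and Ikbkg, were among the 5, with log2 fold changes of -0.34 to -0.47, but with library size only none of the 3 passed in either comparison (-0.27 to -0.14, adjusted p = 0.055 to 0.27 in edgeR), and in limma on log2(TPM + 1) Chuk alone passed, against young TOM+ cDC2. Ikbkg also lost its call against young TOM- DC2 without young TOM- library 91 or 92 or adult library 92. The largest change was in Map3k8, a kinase that binds the Nfkb1 precursor, at 29.3 ± 1.09 TPM in young TOM+, 34.9 ± 1.87 TPM in young TOM- and 77.5 ± 10.6 TPM in adult libraries (SD, n = 3). Its log2 fold change was -1.53 (adjusted p = 2.3e-06 in edgeR) and -1.32 (adjusted p = 8.9e-06). Tab1, a subunit of the TAK1 complex, was the kinase list's gene higher in the young (0.79 and 0.41, adjusted p = 0.0003 and 0.021, the latter lost without young TOM- library 92 or adult library 91).

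Among 22 adaptors and ubiquitin ligases, 11 were higher in adults and the other 11 did not pass in each comparison. Traf1, an adaptor of TNF receptors, was at 288 ± 17.9, 277 ± 16.8 and 665 ± 112 TPM in young TOM+, young TOM- and adult libraries (SD, n = 3), and Malt1, which links antigen and lectin receptors to NF-κB, at 101 ± 10.6, 113 ± 12.5 and 220 ± 22 TPM. Their log2 fold changes were -1.35 and -1.42 for Traf1 and -1.27 and -1.13 for Malt1. Birc2, the neighbour and paralog of Birc3, had -1.06 (adjusted p = 2.3e-05 in edgeR) against young TOM+ and -0.89 (adjusted p = 0.0001) against young TOM- cells. In contrast, Myd88, Traf6 and Ripk1 had values between -0.03 and 0.14 and did not pass. Myd88 passed as higher in young TOM+ cells with the replicate block (0.17, adjusted p = 0.037 in edgeR), with library size only (0.33, adjusted p = 0.0026) and in limma on log2(TPM + 1) (0.26, adjusted p = 0.0046), and Ripk1 passed with library size only against young TOM+ (0.25, adjusted p = 0.015) and young TOM- cells (0.22, adjusted p = 0.027).

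Negative regulators outside the members went both ways. Of 15, 6 were higher in adults and 3 in young TOM+ cDC2, with 7 and 4 against young TOM- DC2. Over all tested genes 19.5% and 16.9% were higher in adults, and 21.0% and 19.4% higher in the young. The counts of negative regulators higher in the young thus lie near the background. Tnip1 (-0.70 and -0.64), which works with the Tnfaip3 product, and the deubiquitinase gene Cyld (-0.53 in both) were higher in adults. Tnip3, of the same family as Tnip1, went the other way, at 8.59 ± 2.39 and 7.69 ± 0.968 TPM in the young groups and 2.81 ± 0.966 TPM in adults (log2 fold change 1.46, adjusted p = 0.00085, and 1.27, adjusted p = 0.0026 in edgeR). Otud7b, a deubiquitinase of the non-canonical branch, was higher in young TOM- DC2 than in both other groups, but at 1.22 ± 0.293 TPM against 0.43 ± 0.151 and 0.257 ± 0.131 TPM. Its difference between the young groups (adjusted p = 0.037 in edgeR) did not pass on RSEM's counts (0.056) or without young TOM+ library 91 or 92, young TOM- library 81 or 92, or adult library 91.

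**Figure D4:**
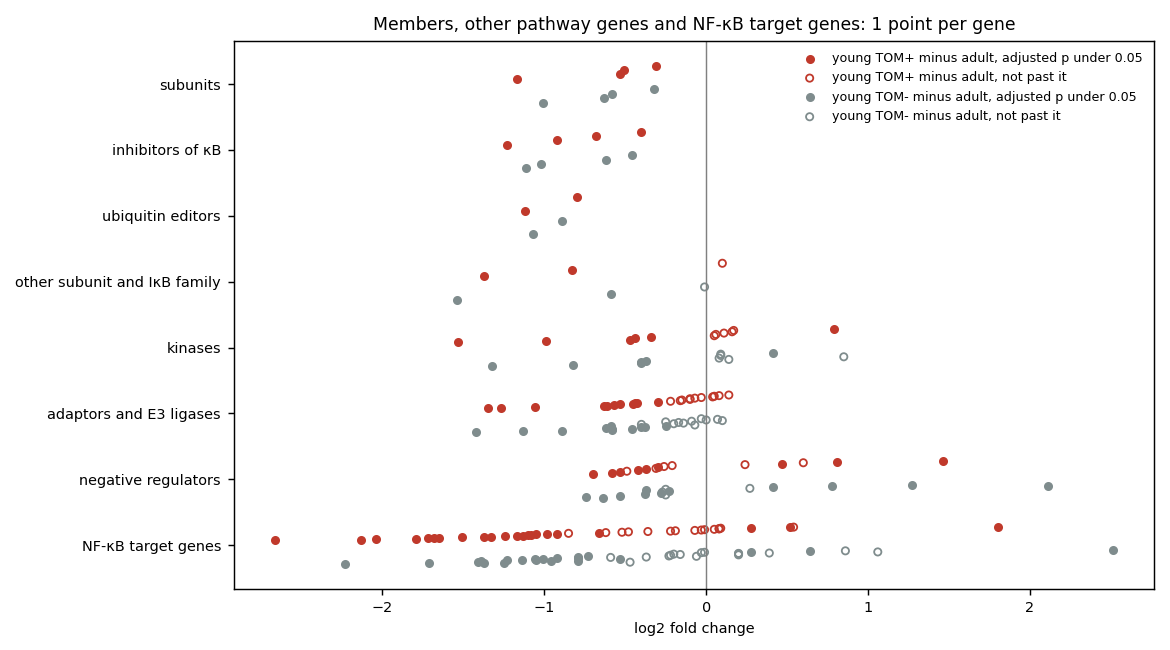
Log2 fold change (young minus adult) of each gene in the member lists, the other pathway lists and the NF-κB target list, with 1 point per gene and comparison, filled where the adjusted p is under 0.05. All member points are filled and lie left of 0, whereas the pathway and target lists hold genes on both sides of 0.

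A list of 37 genes commonly described as NF-κB targets was also followed. Of these, 19 were higher in adults and 3 higher in young TOM+ cDC2, with 18 and 3 against young TOM- DC2, and 15 and 16 did not pass. Over all tested genes 19.5% and 16.9% were higher in adults, and 21.0% and 19.4% higher in the young. The median over the 37 genes was -0.85 and -0.53. Ccr7, the receptor that guides dendritic cells to T cell zones, had the largest difference, at 307 ± 18 and 421 ± 73.2 TPM in young TOM+ and TOM- and 1790 ± 466 TPM in adult libraries (SD, n = 3), with log2 fold changes of -2.66 and -2.23. Cd83, a maturation marker, was at 1460 ± 99.3, 1800 ± 94.2 and 4310 ± 450 TPM. Il12b, the cytokine subunit shared by IL-12 and IL-23, was at 19.6 ± 3.02, 20.8 ± 4.45 and 61.4 ± 16.9 TPM.

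Further targets named by size were the chemokine gene Ccl5 (-2.04 and -1.37), the death receptor gene Fas (-2.13 and -1.25), the costimulatory gene Cd80 (-1.51 and -1.39) and Tnfrsf9 (-1.72, adjusted p = 0.0054, and -0.47, adjusted p = 0.37). The first of these values of Tnfrsf9 did not pass in limma on log2(TPM + 1) without a filter (adjusted p = 0.061). Other classical targets did not pass in either comparison, among them Tnf (-0.62 and -0.06, adjusted p = 0.15 and 0.89), Icam1 (-0.07 and -0.20) and Cd86 (-0.36 and -0.22). Against young TOM+ cDC2, Tnf passed as higher in adults with the replicate block (-0.38, adjusted p = 0.017 in edgeR), which rests there on the numbers 91 and 92. In the same comparison Cd86 passed as higher in adults in DESeq2 (adjusted p = 0.03), in edgeR with other filters (0.043 and 0.048) or with the compared groups alone (0.049). It also did so without young TOM+ library 92 (0.02) or young TOM- library 81 (0.032). Between the young groups, 1 of 37 targets passed, Ccl5, which was lower in TOM+ cells (-0.67, adjusted p = 0.011 in edgeR), as did 1 of the 51 pathway genes, Otud7b. Ccl5 did not pass without young TOM+ library 92 (adjusted p = 0.067) or young TOM- library 91 (0.055). With the replicate block these counts were 12 of 37, all lower in TOM+ cells, and 3 of 51, beside 0 of the 10 members. Over all tested genes 6.57% passed with the block and 4.34% did so with lower values in TOM+ cells, so that the share of the 51 pathway genes is near the background.

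Gene lists for cell state moved with age beside the members. Immediate early genes respond within minutes to stimuli and to cell isolation. The list of 16 used here also counts the heat shock genes Hspa1a and Hspa1b. Hspa1b varied widely within groups, at 495 to 1750 TPM in young TOM+, 378 to 1460 TPM in young TOM- and 194 to 1190 TPM in adult libraries. The summed level of the 16 genes was 17218 to 21127 TPM in young and 23881 to 34010 TPM in adult libraries. The sum without the heat shock genes is not given here. Of these 16 genes, 9 were higher in adults than in young TOM+ cDC2 and 10 than in young TOM- DC2 at the adjusted p. The remaining genes of this list did not pass. Over all tested genes 19.5% and 16.9% were higher in adults at that limit. The summed level of 11 markers of mature or migratory dendritic cells was 567 to 818 TPM in young and 2052 to 3178 TPM in adult libraries. They include Ccr7 and Ccl22 of the target list. Ccr7 was the largest part of this sum, at 287 to 504 TPM in young and 1490 to 2330 TPM in adult libraries. Of the 11 markers, 8 were higher in adults in each comparison. These were not the same genes. Laptm4b was higher in adults than in young TOM+ cDC2 (-1.42, adjusted p = 0.0040 in edgeR) but lower than in young TOM- DC2 (1.28, adjusted p = 0.0035), Fscn1 passed against young TOM- DC2 only (-0.59, adjusted p = 0.032), and Ccl17, averaging 15.3 reads, was higher in young TOM+ cDC2 than in adults (2.90, adjusted p = 0.018). The part of either list in the differences of the members was not tested.

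Within groups the members did not all follow the same library. Tnfaip3 had the same order of libraries as the immediate early sum in 3 of 3 groups. Each member was set beside this sum and the mature marker sum, and no other match held in 3 of 3 groups. Nfkbia and Nfkbib had the order of the immediate early sum in 2 groups, Nfkb1 and Birc3 in 0 and the other members in 1. In adults that sum was 34010, 26205 and 23881 TPM in libraries 91, 92 and 95, and Tnfaip3 and Nfkbiz fell in that order too. The mature marker sum was instead highest in adult library 95 (3178 TPM, against 2097 and 2052 TPM), where Rel, Nfkbie, Birc3 and Relb were also highest. Over all 3 libraries of a group, however, Nfkbie had the order of the mature marker sum in 1 of 3 groups and Rel in 2. In young TOM+ Nfkbie was lowest in library 91 (285 TPM), where that sum was highest (638 TPM), and highest in library 92 (359 TPM), where it was lowest (567 TPM). With 3 libraries a group these orders are descriptions.

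**Figure D5:**
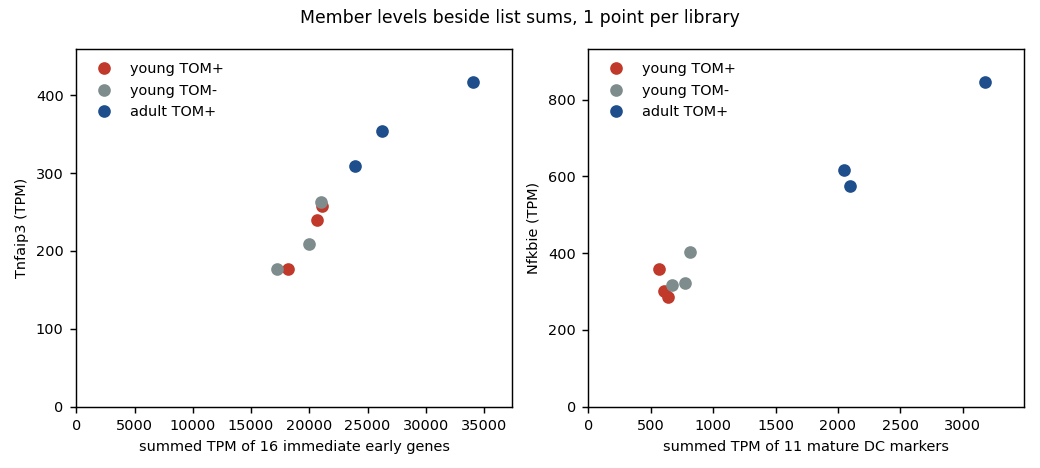
Left, Tnfaip3 (TPM) against the summed TPM of the list of 16 immediate early genes, which counts the heat shock genes Hspa1a and Hspa1b. Right, Nfkbie (TPM) against the summed TPM of 11 mature dendritic cell markers. Both have 1 point per library coloured by group and linear axes from 0. Ccr7 is the largest part of the mature marker sum. Tnfaip3 follows the order of the immediate early sum within each group, and adult library 95, with 846 TPM of Nfkbie, has the highest mature marker sum, whereas Nfkbie has the order of that sum in 1 of 3 groups.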

How the data were processed

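RNA was turned into cDNA with the SMART-seq v4 kit and sequenced in 9 libraries of sorted splenic type 2 dendritic cells, 3 per group. Groups were taken from the labels for cell type and age. Per the labels, the authors aligned reads to mm10 with STAR and quantified transcripts with RSEM, whose versions are not given in the sources used here. The deposited counts are STAR's reads per gene, of which the unstranded column was used without normalization, since reads fell on both strands alike. The deposited expected counts of RSEM were rounded and used in an alternative, and the deposited TPM, which are relative to each library's total, were used for levels. STAR's summary lines (26.14% to 31.63% of reads not assigned to a gene) were left out.

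Genes averaging at least 1 read per library were tested in R 4.3.3 with edgeR 4.0.16 (quasi-likelihood test, TMM, all 9 libraries in 1 fit, Benjamini-Hochberg over 14452 genes). The study's limits, a log2 fold change beyond 1 with an adjusted p under 0.05, were used for calls, here on edgeR fold changes without shrinkage, whereas the study used DESeq2 with apeglm. DESeq2 1.42.0, also with apeglm 1.24.0 (added after seeing the data), and limma 3.58.1 on log2(TPM + 1) were alternatives, as were other scalings and filters and each library left out. The tests were tested on simulated data. No libraries of a group were copies (lowest chi-square per gene 9.18). Young libraries of the same number in the deposited names deviated together (r = 0.746, 0.501 and 0.517 for 81, 91 and 92) and were treated as pairs. For young and adult libraries of the same number r was -0.003 to 0.157. Levels are limited by 3 libraries a group more than by counting, since each member had at least 1562 reads in every library.

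The members and lists were chosen with earlier results of these data known. Named were all members, Relb, and of the other lists the called genes averaging 50 or more reads, at most 6 per list and comparison, by size of the change. The remaining pathway and target genes with values in the text were chosen after their values were seen.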

Additional observations from a re-analysis of the deposited data

How the results depend on the processing

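In 22 alternatives each, every member remained higher in adults in both comparisons with young cells, with log2 fold changes between -0.10 (Nfkb2, library size only) and -1.37 (Nfkbie), and all 10 passed the adjusted p in all of them except Nfkb2 and Nfkbia under library size only. The number of members beyond a log2 fold change of 1 was less firm. With library size only it was 1 against young TOM+ and 0 against young TOM- cells. Against young TOM- cells it was 0 in limma on log2(TPM + 1), on log2(TPM + 0.1) and without a filter, 1 with the replicate block (2 against young TOM+ cells), 1 with libraries numbered 91 and 92 alone (chosen after seeing the data), and 2 to 5 when single libraries were left out. Several members lie near that limit, and the cause was not tested. In comparisons with adults the block rests on the numbers 91 and 92, since 81 and 95 occur at 1 age only.

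Between the young groups, where no member passed in any alternative, the sign of small differences changed. Nfkb2 was at -0.011 with library size only, -0.013 in each limma fit and -0.026 with libraries numbered 91 and 92 alone. When single libraries were left out, Nfkb2 ranged from -0.048 to 0.042, Nfkbia from -0.025 to 0.105, Nfkbie from -0.233 to 0.024, Tnfaip3 from -0.073 to 0.267 and Birc3 from -0.137 to 0.014. The block changed no call of a member at the adjusted p between the young groups. The intervals between the young groups reach from -0.44 to 0.50, and with the block from -0.30 to 0.24, where that of Rel (-0.30 to -0.01) lies below 0.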
